A study of Mus musculus with 11 samples.

Results

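The neuromuscular junction and acetylcholine receptor genes examined here are 10 genes of the 53465 in the muscle count table. Their symbols were matched to the table's Ensembl identifiers: the receptor subunits Chrna1, Chrnb1, Chrnd, Chrne and Chrng, the clustering genes Musk, Dok7 and Rapsn, and Ache and Colq of the synaptic cholinesterase. All 10 passed the filter on low counts and were among the 14117 genes tested. RNA came from the quadriceps, a large thigh muscle, of aged C57L/6JRj mice (strain as spelled in the labels). Both groups were 18 months old at the start and were treated for 10 weeks, 5 libraries with the solvent DMSO and 6 with myriocin, a fungal inhibitor of serine palmitoyltransferase, the first enzyme of sphingolipid synthesis. The comparison asks how junction transcripts of old muscle differ after this treatment. The sources used here give no dose, route or sex, and the labels name no separate animals, so each p-value below refers to the spread between libraries, which may be technical.

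At the neuromuscular junction, the motor nerve releases acetylcholine onto a pentameric receptor packed into the muscle membrane under the nerve ending. Agrin from the nerve binds Lrp4, which activates the kinase MuSK. With its adaptor Dok7, MuSK drives the clustering of receptors, which the scaffold rapsyn holds in place. Fetal receptors carry the gamma subunit (Chrng), which the epsilon subunit (Chrne) replaces after birth. Acetylcholinesterase (Ache), anchored in the basal lamina by the collagen tail ColQ, ends the signal. In a whole muscle only the few nuclei under the nerve ending transcribe most of these genes strongly, and denervated fibres transcribe several of them along their length. In such bulk RNA, fewer cells or nuclei of a type and less RNA in each cannot be told apart.

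Libraries held 22241131 to 23163721 reads counted in genes. Taken as the detection floor, 3 counts corresponded to 0.130 to 0.135 CPM (reads of a gene relative to the gene total of its library, on the usual CPM scale). The levels in CPM below are also scaled between libraries by TMM, with factors from 0.9564 in Myriocin 4 to 1.065 in DMSO 2. The floor is not. As a check of the tissue, Myh4, the fast myosin heavy chain, stood at 54622 to 75600 CPM. Transcripts for typical proteins of cholinergic nerve endings were at or under the floor, which is no measure of how well the muscle was innervated. Slc18a3 and Slc5a7, the vesicular acetylcholine and the choline transporter, had 0 counts in all 11 libraries, which allows up to 0.135 CPM in a library before TMM scaling. Chat, choline acetyltransferase, had 1 count in all. Some libraries stood apart by other transcripts. The summed level of 7 liver markers was 106.7 to 130.6 CPM in DMSO 4, DMSO 5 and Myriocin 4 and 5.74 to 29.2 CPM in the others. DMSO 2 had the highest summed neutrophil and adipocyte markers, at 454.2 and 744.5 CPM. DMSO 5 and Myriocin 1 and 6 had the highest developmental myosins, described with Chrng below.

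None of the 10 genes separated the treatments at the adjusted threshold. In edgeR's quasi-likelihood test 0 of 10 had an adjusted p under 0.05, as had 0% of all 14117 genes. At an unadjusted p under 0.05 there were 2, Chrne and Ache, both higher with myriocin, against 4.68% of all genes in either direction and 2.33% in the higher direction. DESeq2 and limma-voom also found 2 members at an unadjusted p under 0.05 and 0 at the adjusted threshold. Log2 fold changes, myriocin minus DMSO, were positive for 8 members and negative for 2, with a median of 0.11, beside -0.01 over all genes tested. Of all 14117 genes, 6530 were positive and 7587 negative. The group ranges overlapped for every member, and 0.361% of all tested genes had ranges that did not overlap.

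**Figure D1:**
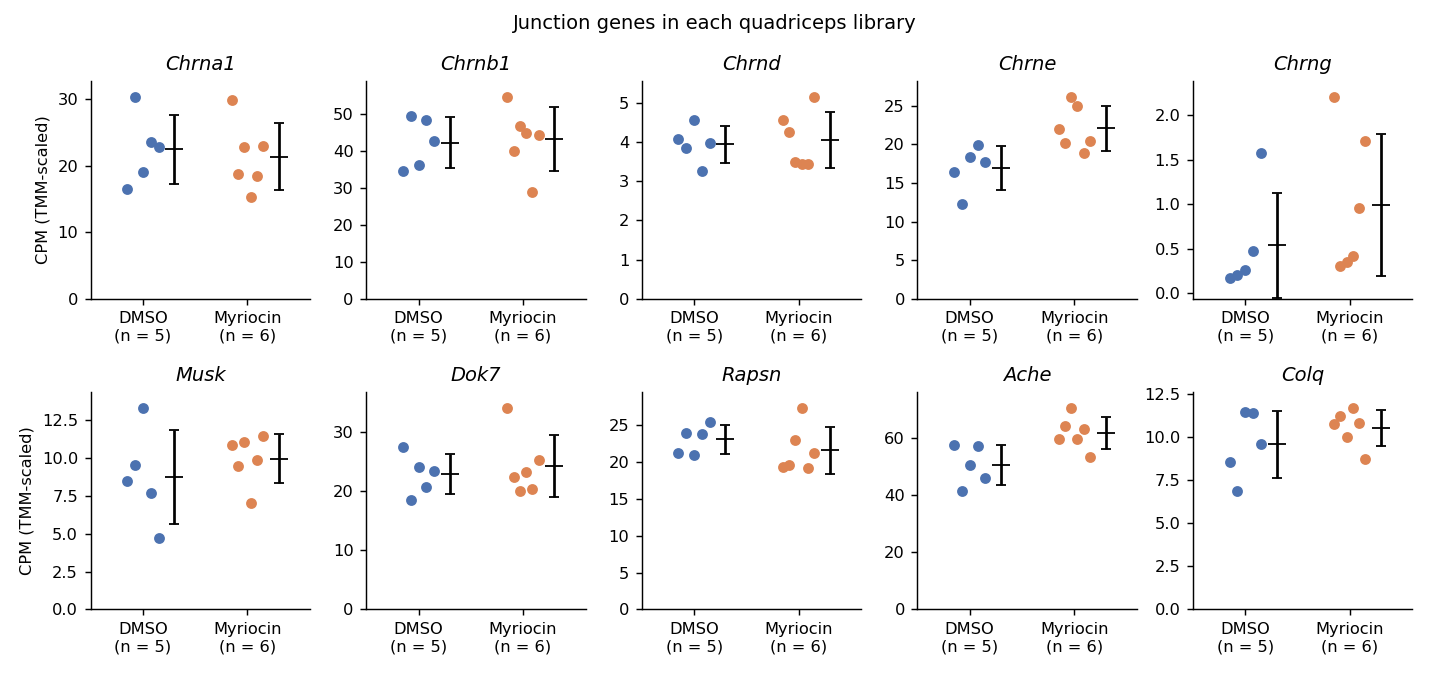
Levels of the 10 junction genes in each quadriceps library, in CPM after TMM scaling. Points are single libraries, 5 with DMSO and 6 with myriocin, in order of replicate number from left to right, and the bar beside them is the mean with its SD. Chrne and Ache sit higher in the myriocin libraries with a small overlap, while Chrng is spread over 12.8-fold with single high libraries in both groups.

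Chrne (ENSMUSG00000014609, GRCm38 chromosome 11, 70614883 to 70619216, minus strand) encodes the adult epsilon subunit. It was measured at 16.4, 12.3, 18.3, 20.0 and 17.6 CPM in DMSO 1 to 5. In Myriocin 1 to 6 it was at 21.9, 20.2, 26.1, 25.0, 18.8 and 20.4 CPM. All 6 myriocin libraries lay above the DMSO mean, and the groups overlapped only in that Myriocin 5 lay below DMSO 4. The means were 16.9 ± 2.89 CPM (SD, n = 5) and 22.1 ± 2.89 CPM (SD, n = 6), a log2 fold change of 0.38 (SE 0.12, 95% interval 0.13 to 0.64), or 1.30-fold (1.09 to 1.56). In edgeR's quasi-likelihood test the unadjusted p was 0.00609, rank 51 among all genes, and the adjusted p was 0.936. The lowest value, 12.3 CPM, belonged to DMSO 2, the library with the highest summed neutrophil and adipocyte markers. Without DMSO 2 the log2 fold change was 0.29. The summed level of 10 muscle fibre markers was 151100 to 183700 CPM with DMSO and 173300 to 203100 CPM with myriocin. Their part in the Chrne difference was not tested.

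Chrng (ENSMUSG00000026253, chromosome 1, 87204657 to 87212694, plus strand) encodes the fetal gamma subunit and was the rarest member. It had 4, 5, 6, 11 and 34 counts in DMSO 1 to 5, that is 0.173, 0.205, 0.261, 0.477 and 1.57 CPM. In Myriocin 1 to 6 it had 50, 7, 8, 9, 22 and 39 counts, or 2.21, 0.307, 0.349, 0.414, 0.958 and 1.71 CPM. Each library was above the floor, and DMSO 5 and Myriocin 1, 5 and 6 were high while the other 7 lay below 0.5 CPM. The log2 fold change was 0.92 (SE 0.68, 95% interval -0.58 to 2.41), with an unadjusted p of 0.205 in edgeR's quasi-likelihood test. It depended on DMSO 5: without that library it was 1.82, with an unadjusted p of 0.0228 and an adjusted p of 0.999. Without Myriocin 1, 5 or 6 Chrng did not pass the filter, so its dependence on these high libraries could not be tested.

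The high Chrng libraries were those with the developmental myosins. Myh3, the embryonic myosin heavy chain, stood at 29.9 CPM in DMSO 5 and at 36.9, 10.3 and 19.6 CPM in Myriocin 1, 5 and 6, against 3.33 to 6.60 CPM in the other libraries. Myh8, the perinatal myosin heavy chain, was at 60.3 CPM in DMSO 5 and at 71.4 and 27.1 CPM in Myriocin 1 and 6. Myriocin 5, at 7.49 CPM of Myh8, lay within the other libraries, which reached 10.9 CPM. Myog, the myogenic factor myogenin, was highest in DMSO 5 and Myriocin 1, at 10.2 and 9.40 CPM, and at 1.90 to 6.61 CPM elsewhere. The liver transcripts followed another pattern, being high in DMSO 5 but not in Myriocin 1 or 6. Among 11730 genes with a symbol other than a predicted gene and a mean of at least 1 CPM, those most like Chrng over the 11 libraries, with each group centred on its mean of log2 CPM, were Myh3 (Pearson r = 0.951), Mymk, the membrane protein of myoblast fusion (0.945), and Myl4, the atrial and embryonic myosin light chain (0.943). This search and the choice of Myh3 and Myh8 were made after their values had been seen.

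The ratio of adult to fetal subunit overlapped between the groups. Of the Chrne and Chrng counts together, Chrne held 99.0% in DMSO 1 (exact binomial 95% interval 97.3% to 99.7%) and 91.8% in DMSO 5 (88.8% to 94.3%). With myriocin it ran from 90.9% in Myriocin 1 (88.1% to 93.1%) to 98.7% in Myriocin 3 (97.4% to 99.4%). These intervals cover counting error only. In counts, Chrne exceeded Chrng by 9.94-fold in Myriocin 1 to 94.75-fold in DMSO 1. Per kilobase of exon it did so by 24.5-fold to 233.4-fold in the same libraries, so that the adult subunit was the larger in each library. The exon lengths include all annotated transcripts, so the per-kilobase folds depend on which of them the muscle uses. The log2 ratio of counts, with 1 count added to each, averaged 5.31 ± 1.10 over the DMSO libraries (SD, n = 5) and 4.79 ± 1.25 over the myriocin ones (SD, n = 6). The difference of -0.52 had p = 0.489 in a 2-sided exact permutation test over all assignments of the libraries, for which the smallest possible p is 0.00216. The ratio moved mostly with Chrng, whose highest library exceeded its lowest 12.8-fold, whereas the Chrne range spanned 2.12-fold.

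**Figure D2:**
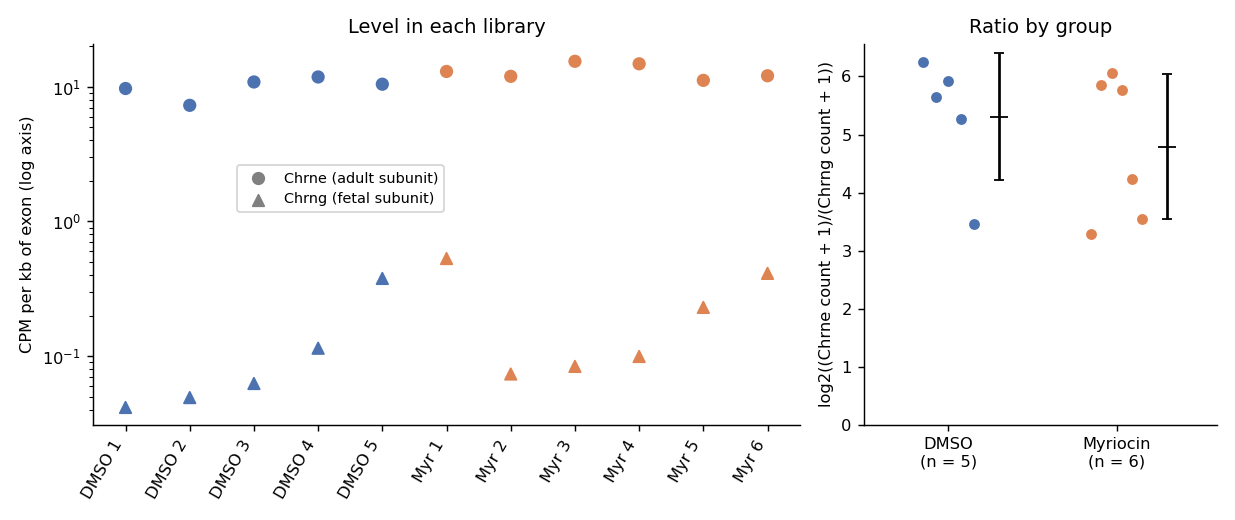
Left, Chrne (circles) and Chrng (triangles) in each library as CPM per kilobase of exon on a log axis, blue for DMSO and orange for myriocin (Myr). Right, the log2 ratio of their counts with 1 added to each, with the mean and SD of 5 DMSO and 6 myriocin libraries; Chrne lies within a narrow band in all libraries, and the ratio falls to between 3.29 and 4.24 in DMSO 5 and Myriocin 1, 5 and 6.

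The sequences upstream of 3 subunit genes were searched for elements for which such genes are known. The N-box, which holds CCGGAA and binds the ETS factor GABP, restricts Chrne to the nuclei under the nerve ending. E-boxes, CANNTG, bind the myogenic factors, through which loss of activity raises subunits such as Chrna1 and Chrng. Below are up to 250 bases before the RefSeq start of 3 genes (RefSeq, GRCm38.p6), read 5′ to 3′ on the strand of the gene and ended before any GENCODE exon. They are shown to set the epsilon subunit beside the gamma subunit and the alpha subunit. Capitals mark CCGGAA and CANNTG.
Chrne (chr11:70619217-70619444, minus strand): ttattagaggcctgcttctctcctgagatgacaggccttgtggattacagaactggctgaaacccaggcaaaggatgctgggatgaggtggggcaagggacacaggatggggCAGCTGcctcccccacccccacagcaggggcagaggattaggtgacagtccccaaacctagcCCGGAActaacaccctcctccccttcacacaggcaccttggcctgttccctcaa
Chrng (chr1:87205561-87205809, plus strand): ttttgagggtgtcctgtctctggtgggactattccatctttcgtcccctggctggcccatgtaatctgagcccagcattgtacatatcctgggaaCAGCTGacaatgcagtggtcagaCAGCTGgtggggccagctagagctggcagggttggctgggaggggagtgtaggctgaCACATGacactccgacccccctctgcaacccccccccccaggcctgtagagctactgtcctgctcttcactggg
Chrna1 (chr2:73580339-73580588, minus strand): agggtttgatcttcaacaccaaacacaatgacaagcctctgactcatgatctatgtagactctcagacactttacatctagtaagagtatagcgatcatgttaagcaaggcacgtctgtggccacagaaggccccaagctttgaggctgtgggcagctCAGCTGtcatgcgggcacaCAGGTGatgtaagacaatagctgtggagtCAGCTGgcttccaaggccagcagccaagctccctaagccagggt
Searched on both strands, the Chrne window held 1 CCGGAA and 1 CANNTG, and the windows of Chrng and Chrna1 each held 0 CCGGAA and 3 CANNTG. The form CAGCTG, which CANNTG covers, occurred 1 time before Chrne and 2 times before each of the others. The windows of Musk and Chrnb1, not shown, also held 0 CCGGAA and 3 CANNTG. Those of Dok7 and Ache held 0 CCGGAA and at most 1 CANNTG. The counts before Chrng and Chrna1 are therefore not particular to them. Of all 32851 RefSeq windows of the same length, 12.0% held CCGGAA at least 1 time and 12.2% held CANNTG at least 3 times. CAGCTG was found at least 1 time in 13.0% and at least 2 times in 1.26%. GENCODE begins Chrng upstream of the RefSeq start, so the window shown lies in an intron of that annotation. Such matches describe the letters and are no evidence of binding in these muscles. Gabpa, the DNA-binding subunit of GABP, had a log2 fold change of -0.02 (SE 0.10). Of the myogenic factors, Myod1 had 0.09 (SE 0.11), Myf6 0.04 (SE 0.12), Myf5 0.32 (SE 0.24) and Myog 0.16 (SE 0.40). Myog ran from 1.90 to 10.2 CPM over single libraries. Gabpa, Myod1, Myf6 and Myf5 were chosen after their values had been seen.

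The other 3 receptor subunits had fold changes near 0. Chrna1 (ENSMUSG00000027107, chromosome 2, 73563215 to 73580338, minus strand) encodes the alpha subunit, which binds acetylcholine. It stood at 16.5, 30.3, 19.0, 23.5 and 22.9 CPM in DMSO 1 to 5 and at 29.8, 18.8, 22.9, 15.3, 18.5 and 22.9 CPM in Myriocin 1 to 6. DMSO 2 and Myriocin 1 were the high libraries, 1 in each group, and the ranges overlapped almost wholly. The log2 fold change was -0.07 (SE 0.18, 95% interval -0.45 to 0.31), and it was 0.06 without DMSO 2 and 0.01 without Myriocin 4. Chrnb1 (ENSMUSG00000041189, chromosome 11, 69784036 to 69795943, minus strand), the beta subunit, averaged 42.2 ± 6.83 CPM over the DMSO libraries (SD, n = 5) and 43.2 ± 8.54 CPM over the myriocin ones (SD, n = 6). Its highest and lowest values, 54.5 and 28.7 CPM, were both from myriocin libraries, and its log2 fold change of 0.03 (SE 0.14) turned to -0.01 with no TMM factor. Chrnd (ENSMUSG00000026251, chromosome 1, 87190607 to 87200070, plus strand), the delta subunit, is the upstream neighbour of Chrng on the same strand. Averaging 3.94 ± 0.471 CPM in DMSO libraries (SD, n = 5) against 4.05 ± 0.7104 CPM in myriocin libraries (SD, n = 6), it had a log2 fold change of 0.04 (SE 0.14), and no library departed from the rest as seen for Chrng. Its sign turned without DMSO 4, at -0.02, and without Myriocin 6, at -0.04.

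The 3 genes most like Chrna1 are known from myeloid cells. By the same measure over 11 libraries these were Fcrls, an Fc receptor-like gene of macrophages (r = 0.958), Lyz2, the lysozyme of macrophages and neutrophils (0.941), and Fcer1g, the shared gamma chain of Fc receptors (0.939). Lyz2 was highest in DMSO 2 and Myriocin 1, at 162.8 and 127.7 CPM, as was Chrna1. The summed level of 5 macrophage markers was 118.3 to 216.8 CPM with DMSO and 93.1 to 200.3 CPM with myriocin, again highest in DMSO 2 and Myriocin 1, and none of the 5 was at 0 in all libraries. Their part in the Chrna1 levels was not tested. Most like Chrne were Dnajb5, a co-chaperone (0.958), Ppp6r1, a regulatory subunit of protein phosphatase 6 (0.952), and Lrrc14, a leucine-rich repeat gene (0.942). These had log2 fold changes of 0.01, 0.00 and 0.00 between the groups, since the measure sets the group means aside. The matches of Chrna1 and of Chrne are the largest r of 11730 genes searched over 11 libraries and carry no p.

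Musk, Dok7 and Rapsn, which build the receptor clusters, did not reach an unadjusted p under 0.05. Musk (ENSMUSG00000057280, chromosome 4, 58285960 to 58374303, plus strand), the agrin-responsive kinase, stood at 8.48, 9.55, 13.3, 7.71 and 4.71 CPM in DMSO 1 to 5. With myriocin it ran from 7.03 to 11.47 CPM with a median of 10.3, so that the lowest and the highest library were both of the DMSO group. Its log2 fold change was 0.18 (SE 0.21) and ran from 0.03 to 0.38 as single libraries were left out. Dok7 (ENSMUSG00000044716, chromosome 5, 35056766 to 35087839, plus strand), the adaptor that activates MuSK, had 22.9 ± 3.40 CPM (SD, n = 5) and 24.2 ± 5.203 CPM (SD, n = 6). Myriocin 1, at 34.1 CPM, was its high library, and without it the log2 fold change went from 0.08 (SE 0.14) to -0.04. Rapsn (ENSMUSG00000002104, chromosome 2, 91035620 to 91045729, plus strand), the scaffold under the receptors, varied least, by 1.42-fold from the lowest to the highest library. The DMSO mean was 23.1 ± 1.95 CPM (SD, n = 5) and the myriocin mean 21.6 ± 3.17 CPM (SD, n = 6), for a log2 fold change of -0.10 (SE 0.10). Its highest library, 27.4 CPM in Myriocin 4, lay apart from the other myriocin libraries, and without it the log2 fold change was -0.17 with an unadjusted p of 0.0411 in edgeR's quasi-likelihood test. Without Myriocin 4, 1449 of all 14018 genes tested were under 0.05, against 660 of 14117 with all libraries.

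Ache (ENSMUSG00000023328, chromosome 5, 137287519 to 137294466, plus strand) encodes acetylcholinesterase. It was at 57.7, 41.5, 50.8, 57.4 and 46.3 CPM in DMSO 1 to 5, and at 59.9, 64.4, 70.7, 59.9, 63.2 and 53.4 CPM in Myriocin 1 to 6. All 6 myriocin libraries lay above the DMSO mean, and only Myriocin 6 lay below the highest DMSO libraries, 1 and 4. The means were 50.7 ± 7.03 CPM (SD, n = 5) and 61.9 ± 5.76 CPM (SD, n = 6), a log2 fold change of 0.29 (SE 0.09, 95% interval 0.09 to 0.49), or 1.22-fold (1.06 to 1.40). The unadjusted p in edgeR's quasi-likelihood test was 0.0082, rank 81 among all genes, and the adjusted p was 0.936. Without DMSO 2, DMSO 5 and Myriocin 4, the 3 libraries farthest out on the principal components, the log2 fold change was 0.17 and the unadjusted p 0.0640. Exons of Ache share 98 bases (2.12%) with those of Gm42456 on the opposite strand, and whether the counting used strand is not given.

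Colq (ENSMUSG00000057606, chromosome 14, 31523082 to 31591343, minus strand), the collagen tail that anchors the enzyme, averaged 9.56 ± 1.94 CPM over the DMSO libraries (SD, n = 5) and 10.5 ± 1.05 CPM over the myriocin ones (SD, n = 6). Its log2 fold change was 0.14 (SE 0.13) with an interval from -0.13 to 0.41, and it turned to -0.02 without the 3 libraries farthest out. The gene shares 199 exonic bases (5.23%) with Gm49387 on the same strand, where reads cannot be assigned with certainty. Of the other cholinesterase genes, Bche, butyrylcholinesterase, had a log2 fold change of 0.11 (SE 0.19) and Prima1, the membrane anchor of the enzyme in brain, -0.06 (SE 0.29).

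**Figure D3:**
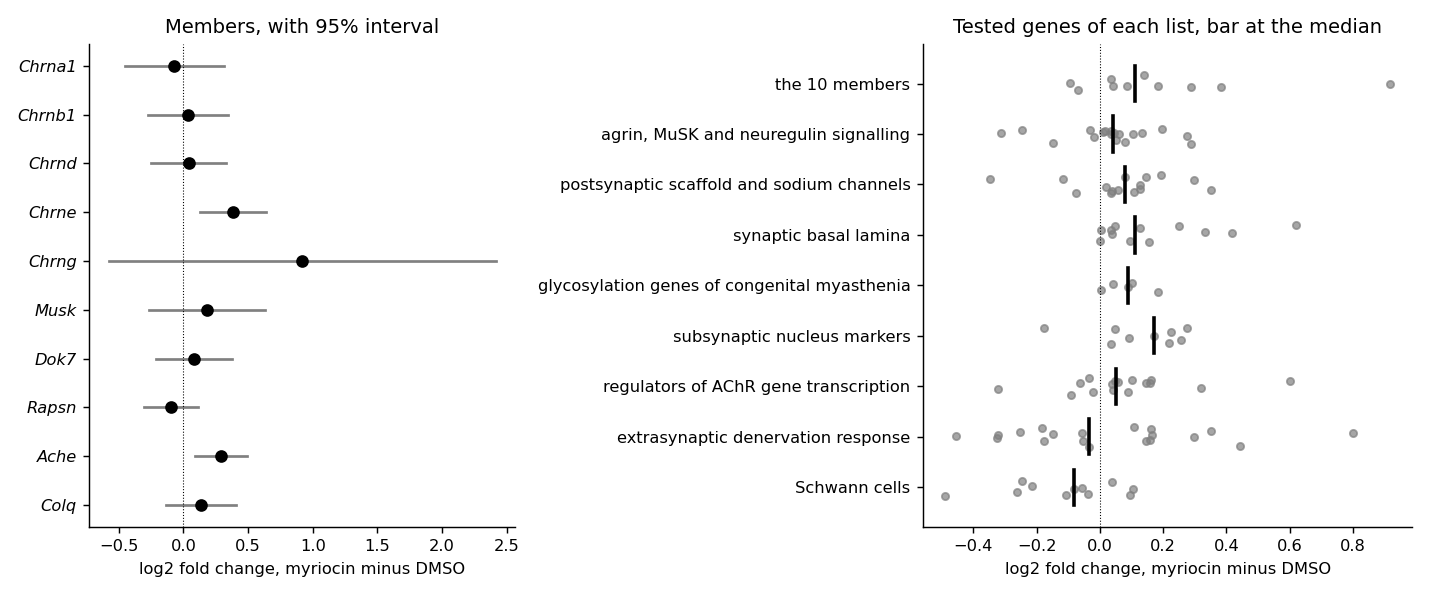
Log2 fold changes, myriocin minus DMSO, of the 10 junction genes with 95% intervals (left) and of the tested genes of 9 lists with the list median as a bar (right). Only the intervals of Chrne and Ache lie above 0, that of Chrng is the widest at -0.58 to 2.41, and the medians of the other lists run from -0.08 to 0.17.

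Levels of different genes are compared as CPM per kilobase of merged GENCODE exon, as the mean over 11 libraries. Chrnb1 was highest at 16.9 ± 2.94 (SD, n = 11), followed by Rapsn at 12.4 ± 1.48, Ache at 12.3 ± 1.82 and Chrne at 11.7 ± 2.27. Rapsn exceeded Ache in 6 of 11 libraries and Ache exceeded Chrne in 6 of 11, so these 3 have no order beyond their spread. Dok7 and Chrna1 came next at 5.52 ± 1.01 and 4.98 ± 1.12, then Colq at 2.65 ± 0.400 and Musk at 2.49 ± 0.6255. Chrnd, at 1.22 ± 0.179, and Chrng, at 0.189 ± 0.173, were the lowest. Among neighbours in this order, the ranges over libraries were separate only between Chrna1 and Colq and between Chrnd and Chrng. Chrnb1 nonetheless exceeded Rapsn, Chrne exceeded Dok7 and Musk exceeded Chrnd in 11 of 11 libraries. Among all tested genes these per-length levels ran from percentile 6.39 for Chrng to percentile 87.2 for Chrnb1. Of the summed per-length level of the 5 receptor subunits, Chrne made up 30.5% ± 5.69 in DMSO libraries (SD, n = 5) and 36.1% ± 4.01 in myriocin libraries (SD, n = 6). Chrnb1 made up 50.1% ± 3.70 and 46.5% ± 3.17, and Chrng 0.381% ± 0.412 and 0.644% ± 0.471. The exon lengths include all annotated transcripts, so the shares depend on which of them the muscle uses.

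Of 45 pairs of members, 28 had a positive and 17 a negative correlation of log2 CPM over the 11 libraries, 6 had an unadjusted permutation p under 0.05, and 0 passed after Benjamini-Hochberg adjustment. Chrne and Ache, the members with an unadjusted p under 0.05 between the groups, had the largest r, 0.79 (rho = 0.68; permutation p = 0.00397 and 0.0249; adjusted p = 0.179 and 0.392). With each group centred on its mean, the r was 0.60 and no longer the largest. Chrne and Colq then had 0.70, and Chrna1 and Chrnb1 had 0.69. For Chrne and Ache it was 0.40 without the 2 libraries farthest from the median of Chrne, so it rested partly on them. Chrna1 and Chrnb1 had r = 0.68 (rho = 0.76; permutation p = 0.0210 and 0.00842; adjusted p = 0.292 and 0.379), and 0.84 without the 2 farthest libraries. Musk and Rapsn had r = -0.65 (rho = -0.61; permutation p = 0.0259 and 0.0516; adjusted p = 0.292 and 0.580), and -0.63 without them. The other 3 pairs were Chrne and Colq, Chrnd and Dok7, and Ache and Colq, with r of 0.71, 0.61 and 0.60. For Ache and Colq it was 0.10 without the 2 farthest libraries.

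**Figure D4:**
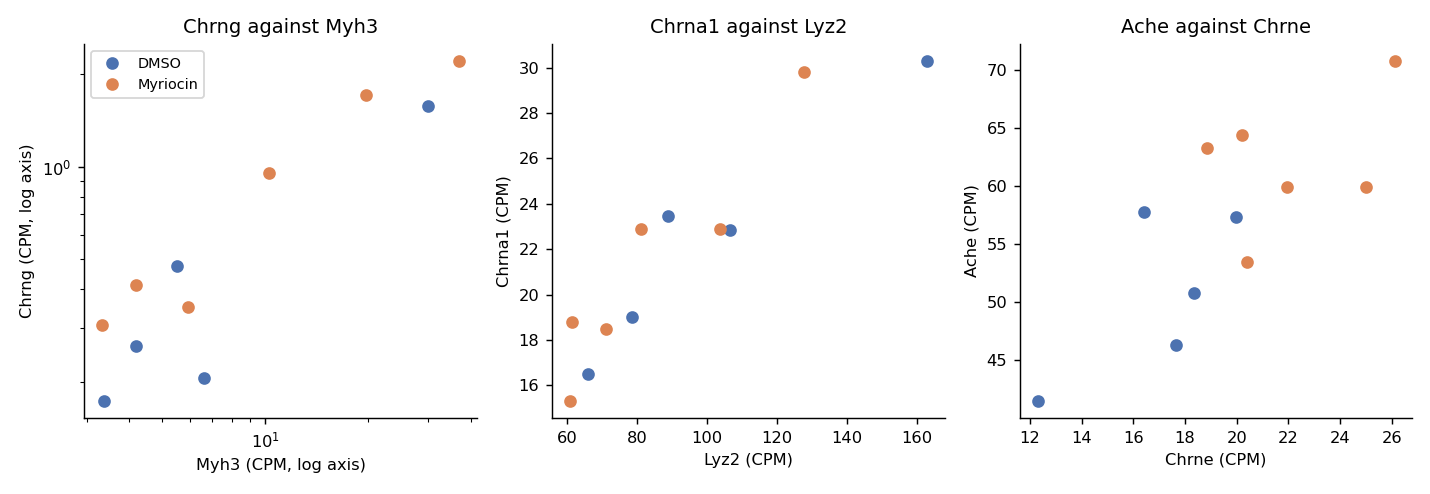
Levels in CPM over 11 libraries, blue for DMSO and orange for myriocin: Chrng against the embryonic myosin Myh3 on log axes (left), Chrna1 against the lysozyme gene Lyz2 (middle) and Ache against Chrne (right). Chrng and Myh3 are high together in DMSO 5 and Myriocin 1, 5 and 6, Chrna1 and Lyz2 in DMSO 2 and Myriocin 1, and DMSO 2 is lowest for both Chrne and Ache.

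The lists below are set beside all 14117 genes tested, of which 6530 had positive and 7587 negative log2 fold changes. At an unadjusted p under 0.05 in edgeR's test, 329 of all genes were higher and 331 lower. Genes of a list may vary together over the libraries, so their signs are not separate observations. The wider agrin, MuSK and neuregulin pathway had 18 tested genes of 20 listed, 13 with positive and 5 with negative log2 fold changes and a median of 0.04. Of these, 2 were higher at an unadjusted p under 0.05 and 0 lower, and 0 passed edgeR's adjusted threshold. These were Pak1, a kinase downstream of MuSK (46.5 ± 2.90 against 56.3 ± 9.11 CPM; log2 fold change 0.27, SE 0.10), and Etv4, an ETS factor of the neuregulin response (2.99 ± 0.414 against 3.65 ± 0.371 CPM; 0.29, SE 0.12). Agrn, agrin, and Lrp4, its receptor, had 0.01 (SE 0.09) and 0.19 (SE 0.13) and were chosen after their values had been seen. Bulk RNA does not show which cells made the Agrn transcript, so it is no measure of agrin from the nerve. Nrg1, the nerve's neuregulin, was too low to test, with 6 counts in 11 libraries, and so was its receptor Erbb4, with 61. The 15 genes of the postsynaptic scaffold and its channels were 12 positive and 3 negative, with a median of 0.08. Their only member at an unadjusted p under 0.05 was Actn2, the alpha-actinin of the Z-disc, which was lower (1143 ± 217 against 899.3 ± 139.1 CPM; -0.35, SE 0.13). Dtna, dystrobrevin alpha, had the next smallest p (0.13, SE 0.08).

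The 12 tested genes of the synaptic basal lamina were 11 positive and 1 negative, with a median of 0.11. Nid2, nidogen 2, which is concentrated in the synaptic cleft, was at 12.3, 5.86, 10.3, 9.57 and 7.72 CPM in DMSO 1 to 5. In Myriocin 1 to 6 it was at 16.3, 12.9, 12.4, 10.4, 15.8 and 16.6 CPM. Only Myriocin 4 lay below the highest DMSO library, and the log2 fold change was 0.62 (SE 0.17), with an unadjusted p of 0.00339 and an adjusted p of 0.936 in edgeR's quasi-likelihood test. Col4a5, a collagen IV chain, followed (0.42, SE 0.22). Fibroblasts also make such proteins, and the summed level of 6 fibroblast markers was 767.5 to 1297 CPM with DMSO and 787.2 to 1668 CPM with myriocin. Its part in the Nid2 difference was not tested. The 5 glycosylation genes of congenital myasthenia were all positive, with a median of 0.09, and 0 had an unadjusted p under 0.05. They were led by Gfpt1, which makes the hexosamine precursor (0.18, SE 0.10), and Alg2, a mannosyltransferase (0.10, SE 0.11).

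Markers of the nuclei under the nerve ending had 8 of 9 positive log2 fold changes and a median of 0.17, the highest of these lists after the 2 cholinesterase genes, with 0 at an unadjusted p under 0.05. Ufsp1, which lies near Ache and is active in those nuclei, had 22.1 ± 2.46 and 25.8 ± 3.99 CPM (0.22, SE 0.11), and Vav3, an exchange factor, 0.28 (SE 0.17). The 16 regulators of receptor gene transcription were 11 positive and 5 negative, with a median of 0.05. Hdac9, whose short form represses receptor genes, stood at 4.10 ± 0.849 and 6.23 ± 1.79 CPM (0.60, SE 0.20; unadjusted p = 0.00953, adjusted p = 0.936 in edgeR's quasi-likelihood test), its groups overlapping in Myriocin 1. Hdac4, which relays denervation to the receptor genes, was on the low side, at 46.1 ± 10.3 and 36.9 ± 7.29 CPM (-0.32, SE 0.16). Its high libraries were DMSO 4 and 5, at 56.4 and 58.4 CPM.

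The extrasynaptic response to denervation had 9 positive and 10 negative genes of 19, with a median of -0.04, and 0 of them had an unadjusted p under 0.05. Its member with the smallest p was Actc1, cardiac actin, at 118.3 ± 50.6 and 205.9 ± 91.6 CPM (0.80, SE 0.37). Myog had a log2 fold change of 0.16 (SE 0.40), the denervation gene Gadd45a -0.18 (SE 0.15), the adhesion molecule Ncam1 0.16 (SE 0.27) and the factor Runx1 -0.06 (SE 0.18). The summed level of the list was highest in Myriocin 1 and DMSO 5, at 2074 and 1849 CPM. In such a sum the abundant genes weigh most: Actc1 ran from 71.3 to 343.8 CPM, and Myog from 1.90 to 10.2 CPM. The sum therefore does not show whether the rarer genes of the list followed Chrng. Myriocin 6 and 5, also high in Chrng, had sums of 1564 and 1091 CPM, and DMSO 3 and 4, low in Chrng, of 1675 and 1668 CPM. Myh3, Myh8 and Myog are themselves in this list.

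Other nicotinic subunits and cholinesterase partners numbered 13, of which 5 passed the filter, 1 positive and 4 negative. Chrna10, known from hair cells and immune cells, averaged 4.47 ± 0.893 CPM in DMSO libraries (SD, n = 5) and 3.38 ± 0.706 CPM in myriocin libraries (SD, n = 6) (-0.40, SE 0.17; unadjusted p = 0.0295, adjusted p = 0.936 in edgeR's quasi-likelihood test). Chrna2, a neuronal subunit, followed with -0.60 (SE 0.30). Chrna6 had 0 counts in all 11 libraries, which allows up to 0.135 CPM in a library before TMM scaling, and Chrna3 and Chrnb4 had 1 count each.

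Other cells of the muscle were followed by their markers, and no marker passed edgeR's adjusted threshold. Motor nerve markers had 3 of 12 tested, Vamp1 (0.11, SE 0.08), Cacna1a (-0.21, SE 0.15) and Uchl1. Their summed level of 38.2 to 50.8 CPM came mainly from Vamp1, at 26.4 to 38.8 CPM, and is no measure of innervation. Schwann cell markers were 3 positive and 8 negative, with a median of -0.08, among them S100b (-0.49, SE 0.25), and summed to 97.2 to 136.4 CPM with DMSO and 71.5 to 132.1 CPM with myriocin. Muscle fibre markers were 6 positive and 4 negative, with Ttn (0.26, SE 0.10) and Myh4 (0.20, SE 0.08) at an unadjusted p under 0.05. Slow fibre markers were 2 positive and 5 negative, led by Myl2 (-0.53, SE 0.94) and Tnni1 (-0.21, SE 0.87), and summed to 65.2 to 711.6 CPM in single libraries, with DMSO 2 and Myriocin 5 the highest. Satellite cell markers were 3 positive and 2 negative, with the stem cell factor Pax7 (0.72, SE 0.24) at an unadjusted p under 0.05 and the cadherin Cdh15 (-0.15, SE 0.10) next. Fibroblast markers were 5 positive and 1 negative, with Lum (0.30, SE 0.14) at that level and Pdgfra (0.19, SE 0.17) next. Endothelial markers were 0 positive and 6 negative, with Cldn5 (-0.51, SE 0.14) at that level and Pecam1 (-0.16, SE 0.08) next.

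Blood, fat and liver markers had 0 genes at an unadjusted p under 0.05 in edgeR's quasi-likelihood test. Of 5 macrophage markers 2 were positive and 3 negative, led by Lyz2 (-0.25, SE 0.26) and Mrc1 (0.12, SE 0.23). The 2 tested neutrophil genes, S100a8 and S100a9, were both negative (-2.35, SE 1.69, and -2.41, SE 1.74), DMSO 2 being the high library. Adipocyte markers were 1 positive and 4 negative, led by Cidec (-0.64, SE 0.54) and Fabp4 (-0.37, SE 0.35). Liver markers were 0 positive and 6 negative, led by Fga (-0.96, SE 0.98) and Alb (-0.89, SE 1.003).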

How the data were processed

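RNA sequencing libraries of quadriceps were used, 5 with DMSO and 6 with myriocin. The authors deposited raw read counts per Ensembl gene, for which the submitters' processing notes name the tools STAR 2.5.2b and HTSeq 0.6.0 and the build GRCm38. The sources used here do not give the strand setting or the annotation release. The table had 53470 lines. Of these, 5 were summary lines, left out here, with 24.8% to 28.2% of each library. Of 53465 genes, 53360 matched GENCODE M21 (GRCm38), which gave symbols, positions and exon lengths. Columns were matched to samples by name. No library was a copy of another of its own group (chi-square per degree of freedom 5.80 to 29.8 between pairs within a group). These values do not cover pairs across the groups.

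Genes were filtered with filterByExpr (minimum count 10, minimum total 15), scaled by TMM and tested with edgeR 4.0.16 in R 4.3.3 (glmQLFit with robust estimation, glmQLFTest), with Benjamini-Hochberg adjustment over 14117 genes and a threshold of 0.05. The fit was tested on simulated data. CPM are TMM-scaled, and the SE of a log2 fold change was recovered from its F statistic. The 45 correlations used 100000 permutations. Likeness is Pearson's r after centring each group. The members, the 19 other lists and the tests were chosen with earlier results of these data known. Named genes are all members, the 2 genes of smallest p in each other list, the 3 genes most like Chrne and Chrna1, and Myog, Hdac4, Gadd45a, Ncam1 and Runx1. Of the genes this rule takes, 1 is not reported here. Alternatives were other scalings and filters, DESeq2 1.42.0, limma-voom (limma 3.58.1), edgeR without robust estimation, the replicate number as a block, each library left out, and 2 sets of 3 libraries left out, those with liver transcripts and those farthest out on principal components. For the ratio of Chrne to Chrng they were other pseudocounts (0.5 and 2) and the share of counts. Sequences are RefSeq windows of 250 bases before the start (GRCm38.p6), found for 7 of the 10 members. The depth sets a floor of 3 counts, and read counts may include PCR copies.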

Additional observations from a re-analysis of the deposited data

Results flagged for a closer look

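Chrng in DMSO 5, at 1.57 CPM, stood apart from the other 4 DMSO libraries, which ran from 0.173 to 0.477 CPM. The gap to the nearest of them was 0.783 of the range of the group, above Dixon's 95% critical value for 5 samples. It was taken on CPM and not on log2 CPM, so the flag holds for that scale only. This was 1 of 22 groups checked, and chance gives such a gap in about 1 of 20 where values are normally distributed. The same library had Myh8 at 60.3 CPM and Myh3 at 29.9 CPM, against at most 10.9 and 6.60 CPM in the other DMSO libraries. It was also among the 3 libraries with liver transcripts. The part of either in the Chrng value was not tested.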

How the results depend on the processing

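Genes past the adjusted threshold numbered 6 with DESeq2 and 0 in the other settings, and the members among them were 0 in each setting. Members at an unadjusted p under 0.05 numbered 2 or, in 3 settings, 3. Of all genes tested, 660 of 14117 were under 0.05 in the main fit. In those 3 settings there were 601 of 14263 without DMSO 5, 1449 of 14018 without Myriocin 4 and 1022 of 14346 without the liver libraries. Chrne was at an unadjusted p under 0.05 in 22 of 22 alternatives, with log2 fold changes of 0.24 to 0.46 and adjusted p of at least 0.420. Ache was so in 21 of 22, with 0.17 to 0.34 and adjusted p of at least 0.418. Chrng could be tested in 17 of 22 and ran from 0.70 to 2.35. It was under 0.05 without DMSO replicate 5 (1.82), without the 3 libraries with liver transcripts (2.35) and without the 3 farthest out (1.85). The filter of 10 counts in 9 libraries, the replicate block and the omission of Myriocin 1, 5 or 6 gave no value for it. The range of Chrng therefore lacks the omission of each of its high myriocin libraries.

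Signs turned for Chrna1, which ran from -0.19 to 0.062 with single libraries left out and was 0.042 without the liver libraries and 0.20 without those farthest out. Chrnb1 ran from -0.044 to 0.13 with single libraries left out and was -0.0056 with no TMM factor. Chrnd ran from -0.039 to 0.098, Dok7 from -0.038 to 0.16, and Colq was -0.023 without the 3 libraries farthest out. The cause was not tested. With the replicate number as a block over 10 libraries (replicate block), Chrnd was -0.040 and the log2 ratio of Chrne to Chrng differed by -0.27 (exact sign-flip p = 1). Same-numbered samples did not deviate together (correlations -0.13 to 0.09). This gave no sign that the numbers pair them, but it cannot exclude a pairing of small effect. The ratio difference kept its sign in each alternative, from -0.98 to -0.22 with single libraries left out, -1.34 without the liver libraries and -1.22 without those farthest out, and p stayed above 0.05. Depth limits Chrng most, since 4 to 11 counts in 7 libraries carry a large counting error.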
